A study of Mus musculus and Rattus norvegicus with 26 samples.

Results

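Transcripts carrying intronic sequence in many places were described here: those with at least 8 different introns in 1 of 6 deposited lists of cytoplasmic intron-sequence retaining transcripts (CIRTs), which are mRNAs in which a stretch of intron is still found. They were chosen on the number of introns that the lists themselves hold, so that number is a description of the choice and not a result. Of 18898 transcripts listed anywhere, 668 met the rule, 649 of them mouse and 19 rat. By list they were 181 of 8953 transcripts in mouse dendrites (2.02%), 41 of 6075 in mouse somas (0.675%), 569 of 10639 in brown adipose tissue (BAT) cells (5.35%), 109 of 6409 in cardiomyocytes (1.7%), 11 of 4499 in rat dendrites (0.244%) and 8 of 3413 in rat somas (0.234%).

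The study compared dendrites, which hold no nucleus, with cells sequenced whole. Hippocampal neurons came from day 18 embryos of C57BL/6 mice and Sprague-Dawley rats and were kept in culture. Dissected dendrites were pooled into 3 mouse and 2 rat samples, and 3 single somas were taken from each species. Single BAT cells came from day 17.5 embryos of CD-1 mice (6 by the labels), and single cardiomyocytes were flow sorted from day 14.5 embryonic ventricles of C57BL/6 mice hemizygous for the Fucci reporter mAG-hGem, which marks cycling cells (9 by the labels). Somas, BAT cells and cardiomyocytes include the nucleus, so unspliced nuclear RNA and intron retained in cytoplasmic RNA cannot be told apart in them. For BAT cells and for cardiomyocytes the number of cells in the study's text is lower than that in the labels, so which samples entered these lists is not known. Each list pools samples of its group and gives 1 read count per intron, so no value here has a spread over samples, and differences between lists were not tested.

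The lists hold contigs (clusters of reads) of all lengths, as used here, whereas in its own analysis the study kept only the short contigs of cells with a nucleus, to limit nuclear RNA. With contigs of at most 400 nt, its limit, the rule was met by 11 transcripts in mouse somas, 240 in BAT cells, 28 in cardiomyocytes and 0 in rat somas.

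Introns are removed from a pre-mRNA by the spliceosome at the splice sites on either side, in general while the gene is still being transcribed. An intron found in a mature transcript may be retained whole, or only a part of it may be seen. Genes differ greatly in length. The longest mammalian genes carry many very long introns that take long to transcribe, while many housekeeping genes are compact.

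Both very long and compact genes were among the transcripts with at least 8 listed introns. The mouse neuronal lists held nearly only genes of over 50 kb, and those with most listed introns there included Lrp1b (a giant lipoprotein receptor), Dmd (dystrophin, which ties the cytoskeleton to the membrane) and Reln (reelin, secreted by neurons that guide migration). These 3 met the rule in BAT cells too, and Dmd also in cardiomyocytes. In both of those lists there were compact genes as well in which nearly every intron was listed, such as Hadha (the alpha subunit of the mitochondrial trifunctional protein of fatty acid oxidation) and Pdk4 (a kinase that shuts off pyruvate dehydrogenase) in BAT cells and Mdh1 (cytosolic malate dehydrogenase) in cardiomyocytes.

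A few stretches of leading introns are shown, the leading intron being the one with the most reads in its transcript, since they show what kind of sequence holds the reads. Positions are on mouse NCBIM37 (mm9), the sequence is that of the gene's strand from 5′ to 3′, and capitals mark runs of at least 8 A or T. The first 3 lie in introns that led in all 4 mouse lists and give the last 300 nt of the stretch covered in every list. The other 4 are the last 300 nt of the longest contig (a cluster of reads) in the leading intron of a transcript described further on.
Usp25 intron 21, chr16:77111950-77112249, + strand: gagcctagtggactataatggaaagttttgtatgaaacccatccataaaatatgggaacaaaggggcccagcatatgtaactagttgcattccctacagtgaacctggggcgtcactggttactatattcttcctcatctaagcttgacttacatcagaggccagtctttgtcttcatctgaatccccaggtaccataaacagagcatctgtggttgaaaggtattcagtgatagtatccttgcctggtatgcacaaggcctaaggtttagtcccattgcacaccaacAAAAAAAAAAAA
Rbm25 intron 9, chr12:85004628-85004927, + strand: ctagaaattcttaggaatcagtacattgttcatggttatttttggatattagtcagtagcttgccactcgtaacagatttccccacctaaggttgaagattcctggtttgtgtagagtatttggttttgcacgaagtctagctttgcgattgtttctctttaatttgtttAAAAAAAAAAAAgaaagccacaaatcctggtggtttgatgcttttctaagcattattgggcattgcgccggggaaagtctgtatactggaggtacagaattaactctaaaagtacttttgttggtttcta
Myo3a intron 30, chr2:22445914-22446213, + strand: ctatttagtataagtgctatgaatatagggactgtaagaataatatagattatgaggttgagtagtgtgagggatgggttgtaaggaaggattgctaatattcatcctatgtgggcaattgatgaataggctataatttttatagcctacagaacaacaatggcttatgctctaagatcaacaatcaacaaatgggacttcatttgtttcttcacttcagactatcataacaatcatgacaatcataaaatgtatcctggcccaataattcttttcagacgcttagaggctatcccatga
Hadha intron 7 in BAT cells, chr5:30464614-30464913, - strand: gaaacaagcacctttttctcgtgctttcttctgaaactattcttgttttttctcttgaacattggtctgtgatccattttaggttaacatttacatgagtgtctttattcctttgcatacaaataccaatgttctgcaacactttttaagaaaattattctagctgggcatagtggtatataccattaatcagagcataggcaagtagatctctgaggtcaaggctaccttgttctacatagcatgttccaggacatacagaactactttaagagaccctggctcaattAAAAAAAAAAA
Nexn intron 4 in cardiomyocytes, chr3:151912666-151912965, - strand: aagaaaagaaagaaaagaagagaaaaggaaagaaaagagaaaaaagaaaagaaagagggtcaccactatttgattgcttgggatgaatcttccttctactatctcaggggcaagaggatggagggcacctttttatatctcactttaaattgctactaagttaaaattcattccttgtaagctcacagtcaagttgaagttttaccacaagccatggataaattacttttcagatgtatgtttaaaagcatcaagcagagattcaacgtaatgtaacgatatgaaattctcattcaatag
Ryr2 intron 81 in cardiomyocytes, chr13:11713662-11713961, - strand: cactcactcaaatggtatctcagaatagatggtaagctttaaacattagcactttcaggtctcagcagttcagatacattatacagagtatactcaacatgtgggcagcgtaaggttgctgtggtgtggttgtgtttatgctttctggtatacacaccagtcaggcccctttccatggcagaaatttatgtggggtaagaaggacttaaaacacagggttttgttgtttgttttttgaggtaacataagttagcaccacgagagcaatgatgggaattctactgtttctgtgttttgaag
Dmd intron 1 in cardiomyocytes, chrX:80251814-80252113, + strand: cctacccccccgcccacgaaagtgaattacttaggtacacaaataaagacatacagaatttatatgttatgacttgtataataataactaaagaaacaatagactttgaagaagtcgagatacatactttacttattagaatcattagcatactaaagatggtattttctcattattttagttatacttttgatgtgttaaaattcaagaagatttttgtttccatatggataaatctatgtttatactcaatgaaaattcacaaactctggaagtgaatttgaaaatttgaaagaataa

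The share of A and T ran from 57.7% in Usp25 and 59.3% in Ryr2 to 72.3% in Dmd. The stretches in Usp25 and Hadha end in a run of A, and that in Rbm25 holds one inside. Those in Nexn and Ryr2 reach the 3′ end of the intron (0 nt left in the annotation), and the contigs there cover 3105 of the 3106 nt of the Nexn intron and 1506 of the 1507 nt of the Ryr2 intron. The Dmd stretch instead lies 57327 nt inside an intron of 187480 nt. The Myo3a stretch is of another kind: over 3260 nt the intron is 97.4% identical to the mouse mitochondrial genome, and its 1481 reads in dendrites, 467 in somas, 25841 in BAT cells and 52869 in cardiomyocytes may not all come from the Myo3a gene. Usp25 and Myo3a were picked after their values were seen.

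**Figure D1:**
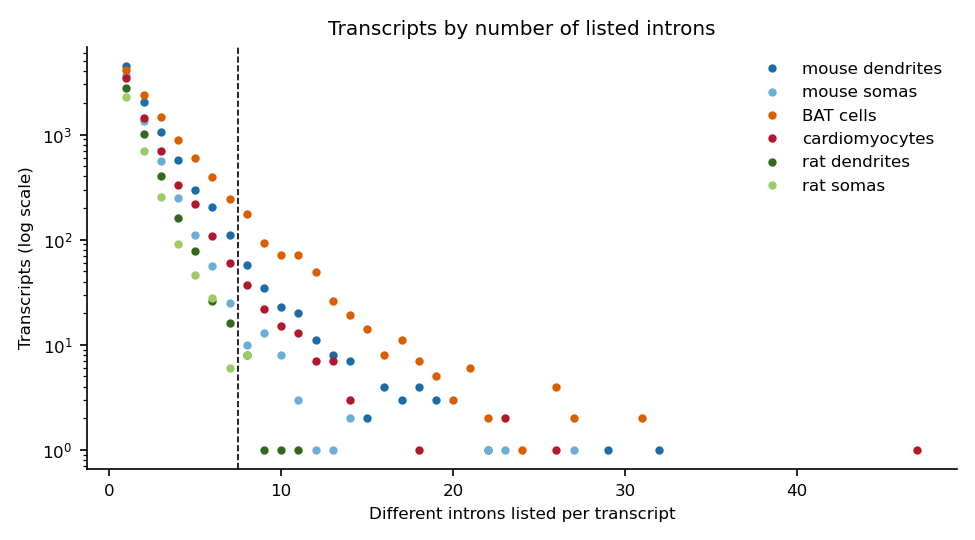
Number of transcripts (log scale) against the number of different introns listed per transcript, 1 point for each number and list. The dashed line marks the limit of 8 introns. Few transcripts lie beyond 15 introns, and cardiomyocytes reach furthest with 47 introns in Ryr2.

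Values on either side of the limit were as follows. In mouse dendrites 58 transcripts had exactly 8 listed introns and 112 had 7, in somas 10 and 25, in BAT cells 176 and 242, in cardiomyocytes 37 and 60, in rat dendrites 8 and 16, and in rat somas 8 and 6. The transcripts just inside with the most reads were Dpp6 (11024 reads) in mouse dendrites, Astn2 (5890) in somas, Ctnna3 (107912) in BAT cells, Erbb4 (59649) in cardiomyocytes, Dcc (3717) in rat dendrites and Ube3a (15624) in rat somas. Just outside, with 7 introns, were Dennd1a (7570 reads), Plxdc2 (20232), D630037F22Rik (68257), Tpp2 (65802), Frmd3 (7390) and Nell1 (36742) in the same order. The transcript just outside had more reads than the one just inside in 4 of the 6 lists.

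The transcripts that met the rule held a larger part of the introns and reads than of the transcripts. For the introns the rule itself brings this about. They carried 1920 of 19477 listed introns in mouse dendrites (9.86%), 435 of 10568 in somas (4.12%), 6139 of 30018 in BAT cells (20.5%) and 1141 of 13056 in cardiomyocytes (8.74%). Their share of the reads was 10.6% of 3086576 in dendrites, 9.82% of 1855447 in somas, 23% of 17858440 in BAT cells and 16.7% of 12201042 in cardiomyocytes. The median reads per listed intron were 30 against 24 in the other transcripts of dendrites, 60 against 20 in somas, 37 against 27 in BAT cells and 140 against 48 in cardiomyocytes. In rat the shares of the reads were 1.5% of 1007530 in dendrites and 2.15% of 2094541 in somas. In contrast 50% of the transcripts of mouse dendrites and 38.6% of those of BAT cells had a single listed intron.

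Genes with the most listed introns were giants in each mouse list. In mouse dendrites Lrp1b (NM_053011, chromosome 2) had 32 of 90 annotated introns listed, Dmd (NM_007868, chromosome X) 29 of 78, Abca13 (an ABC transporter) 22 of 61, and Birc6 and Gpr98 19 each. In somas Reln (NM_011261, chromosome 5) had 27 of 63, Dmd 23, Lrp1b 22, and Bai3 and Myo16 (an unconventional myosin) 14 each. In BAT cells Dmd and its paralog Utrn (utrophin) had 31 each, of 78 and 73, followed by Neb (nebulin, the ruler of the thin filament) with 27 of 156 and Skint5 with 27 of 57. Skint5 belongs to a family of similar genes and is given as uncertain. In cardiomyocytes Ryr2 (NM_023868, chromosome 13), the calcium release channel of the heart, had 47 of 104, Dmd had 26, and Ttn (titin, the spring of the sarcomere) had 23 in each of 2 listed transcripts. These shared no contig: the lists divide the reads of Ttn, and of Syne1 in dendrites, between 2 transcripts of the gene, so their counts per transcript understate the gene.

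Compared with the other transcripts of the same list, genes meeting the rule were longer and had more introns. The median span was 225 kb in dendrites, 314 kb in somas, 99.1 kb in BAT cells and 115 kb in cardiomyocytes. Transcripts below the limit that had at least 8 annotated introns, and so could have met it, spanned 51.8 kb, 57.2 kb, 45.3 kb and 52.9 kb. The median number of annotated introns was 34 against 14 in dendrites, 32.5 against 15 in somas, 25 against 13 in BAT cells and 28 against 14 in cardiomyocytes. A gene with more introns has more chances to reach 8, so these differences are partly set by the rule.

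Within the transcripts, which introns were listed went with length. Listed introns had a median of 5160 nt against 1621 nt for unlisted introns of the same dendrite transcripts, 6515.5 against 1966 nt in somas, 2551.5 against 1337 nt in BAT cells and 2423 against 1192 nt in cardiomyocytes. The listed introns were the longer ones by their median in 159 of 178 dendrite transcripts, 37 of 38 soma transcripts, 438 of 546 BAT transcripts and 86 of 106 cardiomyocyte transcripts. The median ratio within a transcript was 2.5 in dendrites, 2.83 in somas, 1.82 in BAT cells and 1.89 in cardiomyocytes. A long intron offers more places where a read can fall, and the lists give no value per length.

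**Figure D2:**
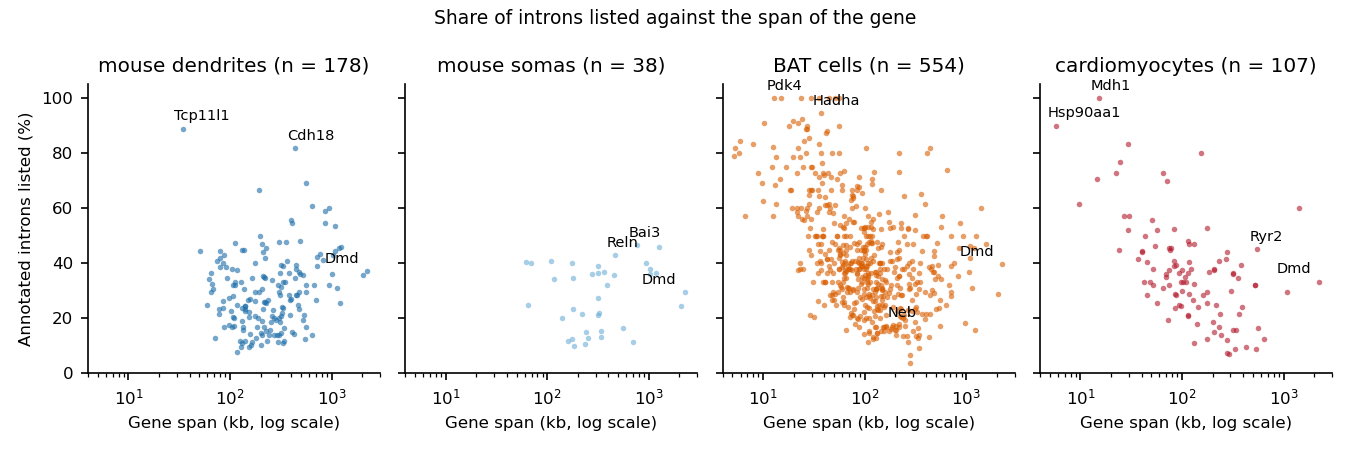
Share of annotated introns listed (%) against the span of the gene (kb, log scale), 1 point per transcript with at least 8 listed introns that matched the annotation, 1 panel per mouse list. The upper left corner, compact genes with nearly all introns listed, holds many points in BAT cells and a few in cardiomyocytes, where 37 and 4 transcripts had at least 80% of their introns listed, while dendrites hold 1 gene under 50 kb and somas none.

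The share of compact genes differed between the lists. Genes under 50 kb were 1 of 178 in dendrites, 0 of 38 in somas, 134 of 554 in BAT cells (24.2%) and 19 of 107 in cardiomyocytes (17.8%). The other matched transcripts of these lists had median spans of 38.2, 42.5, 31 and 36.8 kb in the same order. In each list at least 50% of them were thus under 50 kb, a larger share than among the transcripts meeting the rule. In the 134 compact BAT genes the median share of introns listed was 60.55%, with a median listed intron of 1136.25 nt. The 34 BAT genes over 500 kb had 39.2% of their introns listed, of a median 17824 nt. At least 80% of the introns were listed in 37 BAT transcripts and 4 cardiomyocyte transcripts, but in only 2 of dendrites, Tcp11l1 (8 of 9) and Cdh18, a cadherin (9 of 11), and in none of somas, where Bai3, an adhesion receptor at synapses, came highest with 14 of 30 and Cntn5, a contactin, next with 11 of 24. The lists differ in depth and in the number of cells as well, and the part of these in the difference was not tested.

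Several compact genes had all or nearly all introns listed. In BAT cells all introns were listed for Pdk4 (10 of 10), Pon3 (paraoxonase, 8 of 8) and Ppp2r5a (a regulatory subunit of protein phosphatase 2A, 12 of 12). Hadha had 18 of 19, missing only intron 2. Its reads were spread unevenly, with 8356 in intron 7, 770 in intron 6, 634 in intron 3 and 8 in intron 19, which is 84 nt long. In Pdk4 intron 2 held 10632 reads, intron 1 held 4274 and intron 5 held 2368, with a contig of intron 2 touching an annotated exon of Pdk4, whereas introns 4, 7 and 8 held 7, 6 and 7. In cardiomyocytes Mdh1 had 8 of 8 with 7584 reads in intron 4 and 2392 in intron 1, and Hsp90aa1 (a chaperone) had 9 of 10, of 3 to 814 reads each. A complete listing thus did not mean an even one.

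Some of the compact genes stood at few reads. Eef2, the translation elongation factor 2, had 11 of 13 introns listed in BAT cells with 421 reads in all, while Acat1, of mitochondrial ketone metabolism, had 11 of 11 with 13619 reads. Uqcrc2, a core subunit of respiratory complex III, had 12 of 13 with 7856 reads, and Sdha, the flavoprotein of complex II, had 12 of 14 with 3025 reads. These 4 were named after their values were seen.

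Gene lists by function, drawn up with earlier results of these data known, were counted for how many of their listed genes met the rule, and so are no independent evidence. They cover 63 of the 180 genes meeting the rule in dendrites, 20 of 41 in somas, 171 of 568 in BAT cells and 53 of 108 in cardiomyocytes, so most of those in dendrites and BAT cells fall in no list. For comparison, the rule was met by 5.35% of all transcripts in BAT cells, 2.02% in dendrites, 0.675% in somas and 1.7% in cardiomyocytes, and by 8.2%, 2.96%, 0.893% and 2.5% of those with at least 8 annotated introns. The lists hold many very long genes, and the part of gene length in the shares was not tested. Ubiquitin ligases and deubiquitinases, many of them giant proteins, came highest in BAT cells, with 27 of 36 listed genes (75%) and a median of 9 listed introns beside 2 over all genes of that list. Herc1, Usp34, Mycbp2 and Birc6 led them with 26, 26, 24 and 21 introns. The same list gave 10 of 36 genes in dendrites (27.8%), 5 of 31 in somas (16.1%) and 9 of 35 in cardiomyocytes (25.7%).

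Membrane trafficking and autophagy gave 19 of 42 genes in BAT cells, led by the lipid transporter Vps13b, and 6 of 41 in dendrites, but 1 of 33 in somas and 1 of 36 in cardiomyocytes, Vps13b in each. Giant cytoskeletal linkers and motors gave 16 of 45 in BAT cells, 10 of 46 in dendrites, 1 of 42 in somas and 3 of 39 in cardiomyocytes. Chromatin regulators and transcription cofactors gave 21 of 56 in BAT cells, 5 of 54 in dendrites, 2 of 50 in somas and 7 of 53 in cardiomyocytes, with the corepressor Ncor1 in all 4. Giant kinases and genome maintenance gave 13 of 33 in BAT cells, 3 of 32 in dendrites, 1 of 26 in somas and 4 of 29 in cardiomyocytes, with the cohesin subunit Stag1 in all 4. RNA processing and translation gave 15 of 57 in BAT cells, 5 of 48 in dendrites, 0 of 43 in somas and 8 of 50 in cardiomyocytes. GTPase regulators and signalling scaffolds gave 11 of 43, 9 of 42, 1 of 40 and 4 of 36, and extracellular matrix and adhesion 15 of 40, 3 of 37, 1 of 25 and 4 of 32, in the same order.

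Lists that belong to 1 cell type were also counted. Lipid metabolism and thermogenesis gave 11 of 34 genes in BAT cells, 1 of 24 in dendrites, 0 of 18 in somas and 2 of 18 in cardiomyocytes. Those of BAT cells included Hadha and its partner subunit Hadhb (10 of 15 introns, 1206 reads), Acadvl (a very long chain acyl-CoA dehydrogenase, 15 of 19, 5247 reads), Acadm (the medium chain enzyme, 10 of 11, 720 reads) and Lpl (lipoprotein lipase, 8 of 9, 4455 reads). Sarcomere and muscle contraction gave 8 of 28 in cardiomyocytes, among them Ryr2, Ttn, Actn2 and Myh7, and also 9 of 26 in BAT cells, 3 of 25 in dendrites and 1 of 20 in somas. Neuronal channels, receptors and synapse gave 8 of 73 in dendrites, 7 of 70 in somas, 14 of 71 in BAT cells and 3 of 51 in cardiomyocytes. Membership in these lists was therefore not limited to the cell type in which the genes are best known.

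Defining markers of the cell types were counted in the same way. None of the neuron or glia markers met the rule in any list. Of the brown adipocyte markers 1 of 10 listed did so in BAT cells, Lpl. Of the cardiomyocyte markers 4 of 12 listed did so in cardiomyocytes (Ryr2, Ttn, Myh7, Actn2), 2 of 7 in BAT cells (Ryr2, Ttn) and 1 of 5 in dendrites (Ryr2), and of the erythroid, immune and endothelial markers only Flt1, a receptor of VEGF on endothelium, in dendrites and in BAT cells. The lists hold intronic reads only, so these counts do not test the identity of the cells.

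Listed introns were often neighbours. Of the listed introns, the next or previous intron was listed too for 969 of 1920 in dendrites (50.5%, Wilson 95% interval 48.2 to 52.7), 239 of 435 in somas (54.9%, 50.2 to 59.6), 4113 of 6139 in BAT cells (67%, 65.8 to 68.2) and 721 of 1141 in cardiomyocytes (63.2%, 60.4 to 65.9). In rat it was 58 of 94 in dendrites (61.7%, 51.6 to 70.9) and 48 of 64 in somas (75%, 63.2 to 84). The intervals cover counting error only, since introns of a transcript share their source. Transcripts with no neighbours at all were 10 of 181 in dendrites and 9 of 569 in BAT cells, and transcripts listed as 1 unbroken block were 1 and 17.

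A large share of neighbours follows from a large share of listed introns, so the intron after a listed intron was set beside the intron after an unlisted one in the same transcripts. In BAT cells it was listed in 2711 of 5712 cases (47.5%) against 3074 of 11273 (27.3%), and in cardiomyocytes in 478 of 1089 (43.9%) against 618 of 2947 (21%). In dendrites the values were 591 of 1844 (32%) against 1253 of 5774 (21.7%), and in somas 130 of 387 (33.6%) against 266 of 1270 (20.9%). Taken transcript by transcript, the share after a listed intron was the higher one in 323 and the lower one in 211 of 546 BAT transcripts, in 71 and 31 of 106 cardiomyocyte transcripts and in 25 and 13 of 38 soma transcripts, but in 91 and 84 of 178 dendrite transcripts. In dendrites the medians over transcripts were 28.6% and 27%, so within transcripts the shares lay close together there. With introns listed at random the share after a listed intron would be slightly lower, since fewer listed introns are then left in the transcript. The counts by transcript were not corrected for this.

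**Figure D3:**
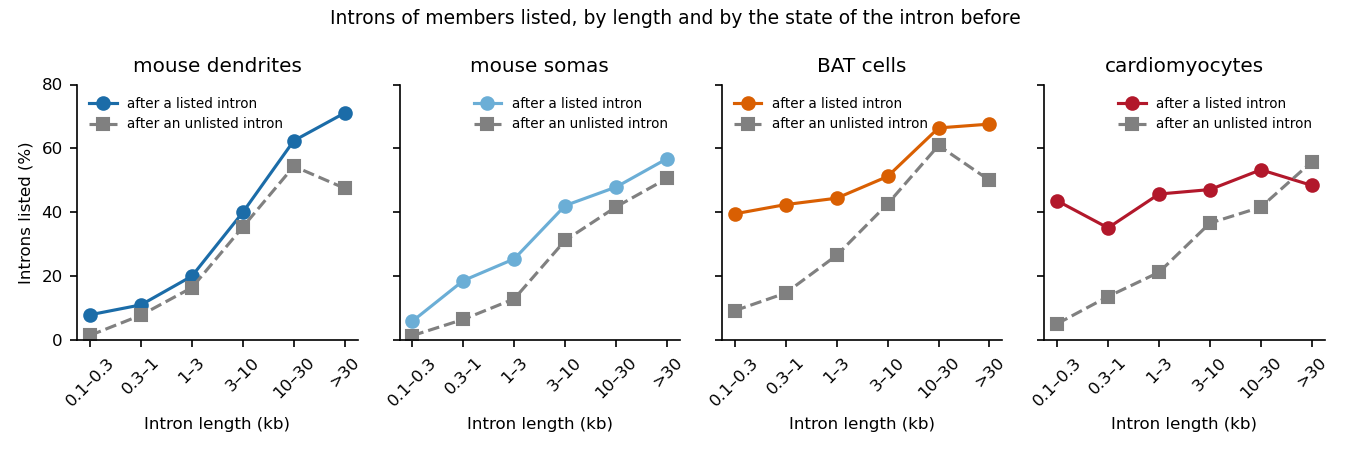
Share of introns listed (%) by intron length (kb), for introns that follow a listed intron (circles) and an unlisted intron (squares) in the same set of transcripts, pooled within each mouse list. For introns of 0.1 to 0.3 kb the share was 39.5% against 9.18% in BAT cells and 43.6% against 5.08% in cardiomyocytes, while the lines lie close together in dendrites between 0.3 and 10 kb of length.

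Split by intron length, the difference was widest for short introns of BAT cells and cardiomyocytes. Introns of 100 to 300 nt were listed in 177 of 448 cases after a listed intron in BAT cells (39.5%) and in 96 of 1046 after an unlisted one (9.18%). In cardiomyocytes this was 41 of 94 (43.6%) against 18 of 354 (5.08%). For introns of 3000 to 10000 nt the shares were 51.2% and 42.6% in BAT cells, and 47.1% and 36.6% in cardiomyocytes. In dendrites introns of 1000 to 3000 nt were listed in 20% and 16.4% of cases, and above 30000 nt in 71.1% and 47.5%. In cardiomyocytes the order was the opposite above 30000 nt, with 15 of 31 (48.4%) after a listed intron and 29 of 52 (55.8%) after an unlisted one. Pooled shares mix transcripts with many and with few listed introns.

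The longest unbroken runs of listed introns differed by list. Hadha had 17 in a row (introns 3 to 19) in BAT cells, and Ppp2r5a, Sdha and Uqcrc2 had 12. In cardiomyocytes Nexn (nexilin, which binds actin at the Z disc) had introns 3 to 12 and the splicing factor Rbm25 introns 5 to 14, 10 each. In dendrites the longest runs were 8, in Dmd (introns 50 to 57), Sfi1 (a centrosome protein, introns 2 to 9), Tcp11l1 and Dpyd (an enzyme of pyrimidine breakdown), and in somas 6, in Sfi1 (introns 2 to 7). In rat dendrites Hbp1 (a transcription factor, introns 4 to 10) and Rad50 (of DNA repair, introns 14 to 20) had 7, as did Lrrc49 in somas (introns 7 to 13). The run of Dmd holds introns of 8164 to 126355 nt, whereas the Nexn run includes introns of 76, 85 and 94 nt.

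Where the contigs lay in the intron differed too. Contigs starting or ending within 50 nt of an end of the intron were 35.3% of those of the BAT transcripts with at least 8 introns and 30.5% of the other BAT contigs, and 42.3% and 35.8% in cardiomyocytes. In dendrites the shares were 11.9% and 13.5%, and in somas 12.4% and 20%. Introns with only 1 contig made up 74.3% of those of these transcripts in dendrites and 74.3% in BAT cells, beside 80.6% and 78.6% for the other transcripts. Contigs that touched an annotated exon of any gene were 2.47% in dendrites, 4.53% in somas, 5.52% in BAT cells and 7.32% in cardiomyocytes, below the 5.36%, 9.88%, 8.06% and 11.8% of the other transcripts. The leading intron had a contig touching an exon in 7 of 181 dendrite transcripts (3.87%), 6 of 41 in somas (14.6%), 66 of 569 in BAT cells (11.6%) and 14 of 109 in cardiomyocytes (12.8%). The reads carry no strand, so a gene on the opposite strand cannot be told apart.

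The reads of a transcript were concentrated in few introns. The leading intron held a median of 45.2% of the reads in dendrites, 47.4% in somas, 54.2% in BAT cells, 53.8% in cardiomyocytes, 47.3% in rat dendrites and 49.4% in rat somas. The 3 most-read introns held a median of 82.7% in dendrites, 85.9% in somas, 89.8% in BAT cells and 90.3% in cardiomyocytes. No transcript needed more than 4 introns to reach 50% of its reads. At the other end 282 of the 1920 introns in dendrites (14.7%) and 563 of the 6139 in BAT cells (9.17%) had at most 2 reads, beside 16.4% and 13.2% in the other transcripts.

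**Figure D4:**
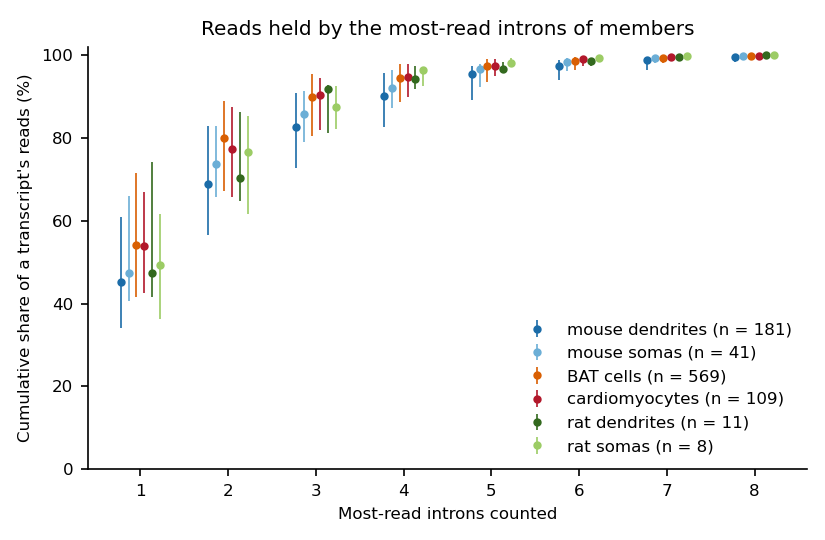
Cumulative share of a transcript's reads (%) held by its most-read introns, from 1 to 8 introns counted. Points are medians over the transcripts with at least 8 listed introns of each list, and bars run from the lower to the upper quartile. With 3 introns the medians lie between 82.7% and 91.9%.

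In extreme cases 1 intron held nearly all reads and the others only a few. In dendrites intron 9 of Mll3 (a histone methyltransferase) held 8579 of 8674 reads (98.9%), with 2 to 29 reads in the other 8, and intron 30 of Herc1 held 10159 of 10409 (97.6%). A contig in that intron of Mll3 touches an exon that the annotation gives to the same gene. In somas intron 53 of Fry held 8478 of 8856 (95.7%) and intron 22 of Acap2, a GTPase activator, 3931 of 4295 (91.5%). In BAT cells intron 8 of Stat4, a transcription factor of cytokine signalling, held 19288 of 19606 (98.4%) and intron 13 of Rnf216, a ubiquitin ligase, 46950 of 47806 (98.2%). In cardiomyocytes intron 26 of Myh7 (the slow myosin heavy chain) held 23204 of 24603 (94.3%), again touching an annotated exon of the gene, and 16 of its other 17 introns had 64 reads or fewer. The neighbouring gene Myh6 is very similar in its coding exons. The search for copies described further on found none over at least 50% of the contig in this intron, but shorter matches were not counted. Whether reads of Myh6 were placed here was not tested. Intron 17 of Osbpl1a, a lipid binding protein, held 6385 of 6883 (92.8%).

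Some other giants spread their reads more widely. In cardiomyocytes Ryr2 had 146224 reads, with 29463 in intron 81, 23436 in intron 53 and 18493 in intron 23, so its leading intron held 20.1%. In somas Reln had 22210 reads, with 4952 in intron 25, 3968 in intron 1 and 1968 in intron 11, and a leading share of 22.3%. A contig in intron 25 touches an annotated exon of Reln. In dendrites Lrp1b had 10075 reads, with 3743 in intron 23, 1010 in intron 67 and 1002 in intron 15. This was not general for long genes. For those over 500 kb the median leading share was 34.55% in dendrites, 43.15% in somas, 62.55% in BAT cells and 52.8% in cardiomyocytes. For those of 50 to 500 kb it was 49.8%, 48.7%, 53.9% and 52.8% in the same order.

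The leading intron was set beside the longest one. It was the longest of the listed introns in 28 of 178 dendrite transcripts (15.7%), 7 of 38 in somas, 113 of 554 in BAT cells (20.4%) and 14 of 107 in cardiomyocytes (13.1%). The median number of listed introns was 10 in BAT cells and 9 in the other mouse lists. A share expected from that number was not computed. The leading intron was intron 1 in 7 of 181, 1 of 41, 36 of 569 and 4 of 109 transcripts. With the introns of each transcript divided by number into 3 equal parts, the leading intron lay in the part nearest the 5′ end in 48.3% of dendrite, 39.5% of soma, 42.8% of BAT and 43% of cardiomyocyte transcripts. The share of introns listed varied less along the transcript, from 28.3% at the 5′ end to 21.7% at the 3′ end in dendrites and from 34.7% to 32.7% in BAT cells.

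Runs of A and of T near the contigs were counted, since the amplification starts from oligo-dT and the reads carry no strand. A run of at least 10 A within the contig or the 300 nt after it was found for 35.7% of the contigs of leading introns in cardiomyocytes, 22% of those in the other introns of the same transcripts and 24% of those in other transcripts. In somas the shares were 39.4%, 32.6% and 29.5%, in BAT cells 17.7%, 13.9% and 16.2%, and in dendrites 16.9%, 15.5% and 17.6%. A run of at least 10 T within the contig or the 300 nt before it was found for 17%, 13.6% and 15.4% in cardiomyocytes, 18.3%, 14.8% and 18.6% in somas, 20.9%, 16.9% and 18.5% in BAT cells and 26.9%, 23.5% and 26.2% in dendrites. Runs of T were thus the more frequent ones in dendrites and BAT cells, and runs of A in somas and cardiomyocytes. Contigs of leading introns were the longer ones, with medians of 650.5, 344 and 273 nt in cardiomyocytes and 347, 249 and 256 nt in dendrites. Their part in the reads was not tested. The median G and C content of leading contigs was 38.5% in dendrites and 37.6% in cardiomyocytes. In the other introns of the same transcripts it was 38.2% and 37.6%, and in other transcripts 41.2% and 41.3%.

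Copies elsewhere in the genome could add reads to a leading intron. In 6 of 181 dendrite, 1 of 41 soma, 12 of 569 BAT and 2 of 109 cardiomyocyte transcripts at least 50% of the contig length of the leading intron was at least 90% identical to the spliced transcript of another gene or to the mitochondrial genome. Beside Myo3a, these included intron 15 of Mrc1, a mannose receptor, in BAT cells with 1818 of 1888 nt.

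The same transcripts were then looked up in the other lists, which come from other samples and were not used to choose them. Nearly all were found there. Dendrite transcripts with at least 8 introns were listed in somas in 173 of 181 cases (95.6%, interval 91.5 to 97.7), in BAT cells in 181 and in cardiomyocytes in 168 (92.8%), whereas 53.8%, 81.3% and 53.3% of all dendrite transcripts were. Those of somas were listed in dendrites and BAT cells in 41 of 41 cases and in cardiomyocytes in 40, against 79.4%, 85.1% and 61.6% of all. Those of BAT cells were listed in dendrites in 96.3%, somas in 89.3% and cardiomyocytes in 91.2%, against 68.4%, 48.6% and 52.2%. Those of cardiomyocytes were listed in dendrites in 97.2%, somas in 93.6% and BAT cells in 99.1%, against 74.5%, 58.4% and 86.7%. In rat, 9 of 11 dendrite transcripts were listed in somas and 8 of 8 soma transcripts in dendrites, against 48.2% and 63.6% of all.

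Transcripts below the limit with at least 8 annotated introns were looked up as well, although they had fewer introns and shorter spans by their medians, as given above. The part of gene length in the difference was not tested. Those of dendrites were listed in somas in 58.5% of 5827 cases, in BAT cells in 85.7% and in cardiomyocytes in 56.8%. Those of somas were listed in dendrites in 84% of 4216, in BAT cells in 88.3% and in cardiomyocytes in 64.5%. For BAT cells the shares were 74.8% in dendrites, 52.7% in somas and 53.7% in cardiomyocytes of 6199, and for cardiomyocytes 80.9% in dendrites, 63.7% in somas and 89.4% in BAT cells of 4170. The distance to the transcripts meeting the rule was thus smallest for being listed in BAT cells. Over the 4 mouse lists, 518 of the 649 mouse transcripts (79.8%) were listed in all 4 and 2 in only 1, beside 23.5% and 27.1% of the 13156 transcripts of these lists, a count that includes the lists that chose them and is a description. Meeting the rule itself was less widely shared: 454 met it in 1 list, 148 in 2, 38 in 3 and 9 in 4. Of the 181 dendrite transcripts 128 met it in BAT cells as well but 30 in somas and 29 in cardiomyocytes, and of the 109 of cardiomyocytes 84 did so in BAT cells.

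The listed introns themselves were compared between lists for these transcripts alone, with no value for other transcripts beside them. In dendrite transcripts 984 introns were listed in BAT cells too, which were 51.2% of the 1920 in dendrites and 49.2% of the 2000 that these transcripts had in BAT cells. With cardiomyocytes 447 were shared, 24.8% of the dendrite introns and 55.1% of the cardiomyocyte introns. For BAT transcripts 1771 introns were shared with cardiomyocytes, 31.2% of those in BAT cells and 70.6% of those in cardiomyocytes. Where an intron was in both lists, contigs overlapped by at least 1 nt in 35.8% of 984 cases for dendrite transcripts in BAT cells, 50.2% of 530 in somas and 36.9% of 447 in cardiomyocytes. For BAT transcripts it was 42.6% of 1954 in dendrites, 53.6% of 1245 in somas and 66.1% of 1771 in cardiomyocytes. The leading intron was the same in 17 of 181 dendrite transcripts in BAT cells, in 22 of 173 in somas and in 88 of 519 BAT transcripts in cardiomyocytes (17%).

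**Figure D5:**
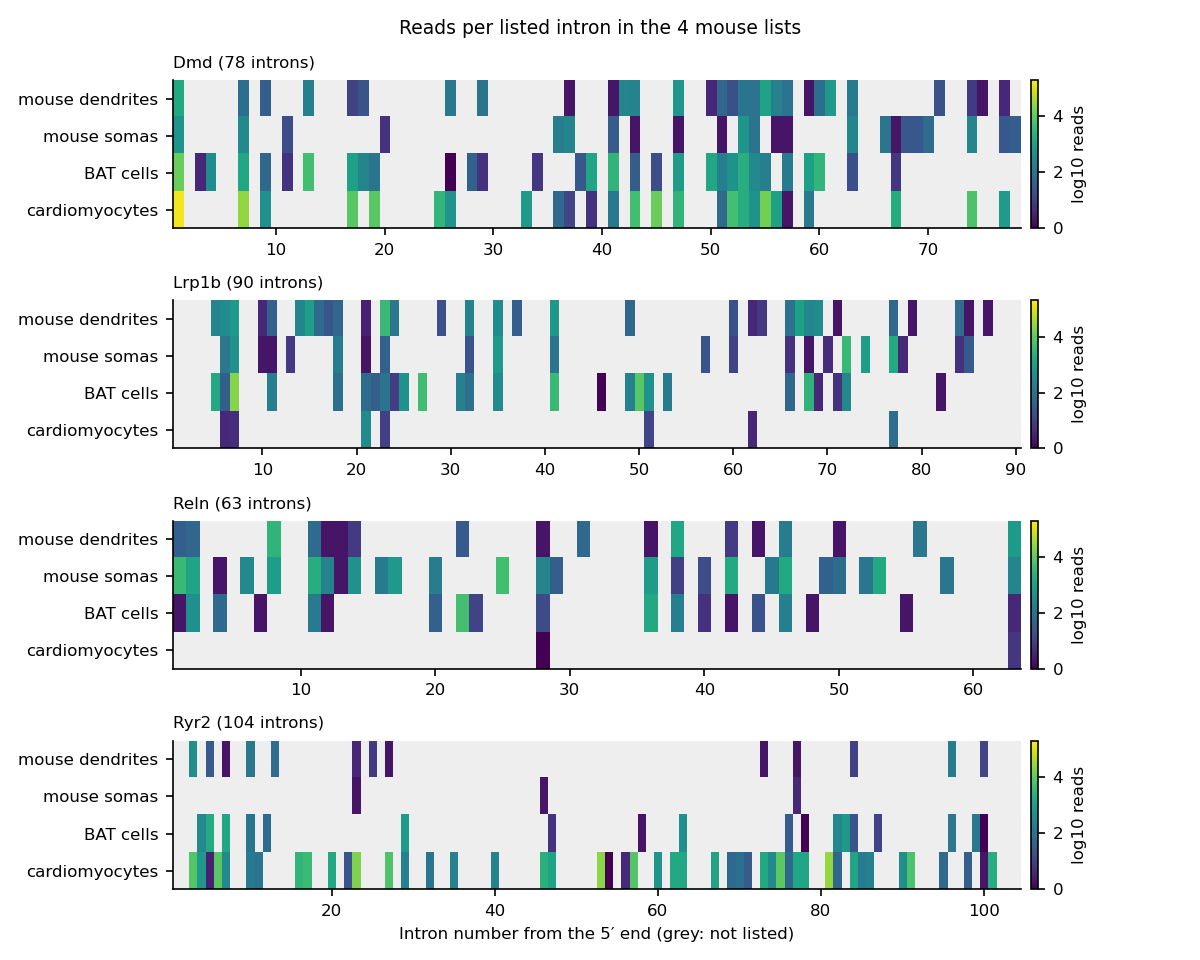
Reads (log10) in each listed intron of Dmd, Lrp1b, Reln and Ryr2 by intron number from the 5′ end, 1 row per mouse list. Grey introns are not listed. Intron 1 of Dmd leads all 4 rows, and no intron of Ryr2 is filled in every row.

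The 9 genes that met the rule in all 4 mouse lists were Dmd, Vps13b, Birc6, Rock1, Mycbp2, Stag1, Fry, Myo9a and Ncor1. Of these Dmd had the most, with 48 introns listed in at least 1 list and 9 in all 4 (introns 1, 7, 41, 43, 47, 51, 53, 54 and 57). Its leading intron was intron 1 in each list, with 1673 reads in dendrites, 565 in somas, 12396 in BAT cells and 163979 in cardiomyocytes, in 12, 6, 26 and 33 contigs. At 187480 nt it is the longest intron of the transcript that was listed. No stretch of it was covered in all 4 lists. Intron 55, of 126355 nt, held 1200 reads in dendrites, 194 in BAT cells and 14977 in cardiomyocytes and was not listed in somas.

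The other genes had fewer introns common to all 4 lists. Birc6, a giant inhibitor of apoptosis, had 34 introns listed in at least 1 list but 2 in all 4, led by introns 6, 13, 7 and 31 in dendrites, somas, BAT cells and cardiomyocytes. Stag1 had 22 and 6 and was led by introns 22, 11, 15 and 6. Vps13b had 30 and 4, Rock1 (a kinase of the actomyosin cytoskeleton) 26 and 1, and Mycbp2 (a ubiquitin ligase of axon growth) 38 and 1. Of genes that met the rule in 3 lists, Lrp1b had 47 and 4, Reln 35 and 2, Usp34 38 and 3, and Gpr98 (a giant adhesion receptor) 30 and 4, with intron 85 leading in dendrites, somas and BAT cells. Syne2, a linker of the nuclear envelope, had 40 and 0. Ryr2 had 55 and 0, with 13 introns and 863 reads in dendrites, 3 introns and 8 reads in somas, and 18 introns and 6153 reads in BAT cells.

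Reads of the same gene differed by orders of magnitude between lists. Ryr2 had 146224 in cardiomyocytes beside 8 in somas, and Reln had 22210 in somas and 5722 in dendrites beside 8 in cardiomyocytes. Lrp1b had 45966 in BAT cells and 436 in cardiomyocytes. The lists are not scaled to a common depth, so these are raw counts.

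A leading intron shared by all 4 lists was found in 9 mouse transcripts. Beside Dmd, Usp25, Rbm25 and Myo3a these were Atp5a1, Met, Dnajc3, Hadhb and Ppfia2. In Rbm25 intron 9 held 115 reads in dendrites, 402 in somas, 6103 in BAT cells and 22314 in cardiomyocytes, and 917 nt were covered in every list, up to 1 nt from the 3′ end of the intron. In Usp25, a deubiquitinase, intron 21 held 222, 321, 669 and 758 reads in the same order, with 301 nt covered in every list. In Met, Dnajc3 and Ppfia2, as in Dmd, no stretch was common to all 4. In a list with a single listed intron the leading one is fixed, as for Atp5a1, Met and Dnajc3 in somas, Met in cardiomyocytes and Hadhb in dendrites. These genes were named after their values were seen.

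In rat the 19 transcripts carried fewer introns. In dendrites Cp (ceruloplasmin, a copper protein) had 11 with 2700 reads, led by 1061 in intron 18 and 609 in intron 17. Macf1, a linker of actin and microtubules, had 10 with 568 reads, and Ppp1r12a, a myosin phosphatase subunit, 9 with 941 reads. The other 8 had 8 each, among them Dcc (the netrin receptor of growing axons) with 3398 of 3717 reads in intron 5, and Scfd1 (of vesicle fusion) with 998 of 1039 in intron 16. In somas all 8 had exactly 8: Ube3a (a ubiquitin ligase, 15624 reads), Odz4 (a teneurin, 10167), Psip1 (a chromatin reader, 10101), Dimt1l (an rRNA methylase, 5680), Nav3, Vps13b, Rims2 (of the presynaptic active zone) and Lrrc49. None met the rule in both rat lists. Ube3a had 8681 reads in intron 4 and 4776 in intron 11, and Psip1 had 7804 of its reads in intron 9 (77.3%).

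By symbol the rat genes were nearly all listed in mouse. Of the 11 in rat dendrites 10 were listed in mouse dendrites, 8 in mouse somas, 11 in BAT cells and 10 in cardiomyocytes, and 3, 1, 6 and 3 met the rule there. Over all transcripts of rat dendrites the genes of 63.8%, 48.4%, 73.5% and 52.7% were listed. Of the 8 in rat somas 8, 7, 8 and 7 were listed and 1, 2, 3 and 1 met the rule, and over all transcripts of rat somas the genes of 64.8%, 54.1%, 74% and 53.7% were listed. Birc6 met it in rat dendrites and in all 4 mouse lists, with 8 introns beside 19, 9, 21 and 9, and Vps13b in rat somas and all 4 mouse lists, with 8 beside 18, 10, 21 and 10. Macf1 had 10 in rat dendrites and 10, 4, 12 and 8 in mouse dendrites, somas, BAT cells and cardiomyocytes. By contrast Cp, with 11 introns in rat dendrites, had 1 in mouse dendrites and 5 in BAT cells and was not listed in mouse somas or cardiomyocytes, and Ube3a, with 8 in rat somas, had 1 or 2 in each mouse list.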

How the data were processed

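RNA of 26 samples was amplified with oligo-dT and sequenced in pairs. Per the study's methods, the authors aligned reads with RUM to mm9 or rn4, kept uniquely mapped intronic reads, removed introns overlapping predicted genes or polyadenylation sites, and joined nearby reads into contigs. The deposited values are raw read counts per intron, pooled over the samples of a group and repeated on each contig, so each intron was counted once. No sample values and hence no tests were possible.

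Introns were counted per transcript and list in Python 3.11.15 with pandas 2.3.3. Of the 649 mouse transcripts 632 were matched to an NCBIM37 annotation for intron lengths, of which 45 had an uncertain intron number. Rat positions were not analysed beyond intron numbers. Copies were sought with BLAST 2.17.0, with at least 98% identity in the genome and 90% in spliced transcripts. Contigs with runs of A were read with pysam 0.24.0, leaving out 62 on unplaced sequence. Wilson 95% intervals were used, and these cover counting error only.

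Genes were named by rule. These were the 4 with most listed introns in each list, the 2 with the largest share listed, the longest runs and the largest leading share, the 12 with most introns among those meeting the rule in at least 3 lists, and the transcripts with most reads at exactly 8 and 7 introns. Further names are marked in the text or illustrate a gene list. The transcripts, gene lists and naming rule were chosen with earlier results of these data known. Alternatives were contigs of at most 400 nt, introns of at least 16 reads, a limit of 6 or 10 introns, and genes joined by symbol. Some items are not reported here.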

Additional observations from a re-analysis of the deposited data

How the results depend on the processing

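The number of transcripts meeting the rule depended on every limit tried. In the order mouse dendrites, somas, BAT cells, cardiomyocytes, rat dendrites and rat somas it was 91, 11, 240, 28, 3 and 0 with contigs of at most 400 nt, 54, 15, 196, 50, 1 and 1 with introns of at least 16 reads, 496, 122, 1205, 277, 53 and 42 with at least 6 introns, and 88, 18, 301, 50, 2 and 0 with at least 10. Joining genes by symbol kept all 6 counts within 1.5 times. The share of listed introns with a listed neighbour became 45.8% in dendrites, 42% in somas, 54.6% in BAT cells and 52.8% in cardiomyocytes with contigs of at most 400 nt. With introns of at least 16 reads it was 49.7% in somas, 60.8% in BAT cells, and 44.4% and 100% in rat dendrites and somas, each from 1 transcript. It was 49.5% in somas and 61.7% in rat somas with at least 6 introns, and 66.3% in cardiomyocytes with at least 10. The median share of the leading intron was 66.5% in somas, 58.8% in BAT cells and 59.1% in cardiomyocytes with contigs of at most 400 nt, and 38.8% in dendrites, 47.9% in BAT cells and 29% in rat somas with introns of at least 16 reads. It was 51.9% in dendrites and 58.5% in BAT cells with at least 6 introns, and 39.7%, 50.6% and 49.9% in dendrites, BAT cells and cardiomyocytes with at least 10. With contigs of at most 400 nt, 89% of dendrite transcripts were listed in somas, 93.3% of BAT transcripts in cardiomyocytes, 85.7% and 82.1% of cardiomyocyte transcripts in dendrites and somas, and 100% of the 3 rat dendrite transcripts in rat somas. With introns of at least 16 reads in both lists, 87% and 77.8% of dendrite transcripts were listed in somas and cardiomyocytes, 80% of soma transcripts in cardiomyocytes, 90.3% and 77% of BAT transcripts in dendrites and somas, 92% and 76% of cardiomyocyte transcripts in dendrites and somas, and 0% of the 1 rat dendrite transcript in rat somas. The ratio of listed to unlisted intron length did not move beyond its interval with at least 6 or 10 introns. The cause of these shifts was not tested. No paired analysis was possible because the lists pool the samples of a group, and for the same reason no sample could be left out. Without sample values, lists that differ in depth from 1007530 to 17858440 reads cannot be compared with an error.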
